A study of Rattus norvegicus with 74 samples.

Results

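The miR-322, miR-503 and miR-542 cluster is a run of miRNA genes that lie close together on 1 strand of the rat X chromosome. Its members were taken from rat kidney miRNA arrays by name: every array miRNA of the miR-322, miR-503, miR-351, miR-542 and miR-450a hairpins, either arm, that the scanner software marked as detected on at least 1 array. This gave 7 members out of 311 miRNAs detected on any array and 677 miRNAs on the array. The array carries 10 miRNAs of these hairpins, and the other 3, miR-503-3p, miR-351-3p and miR-450a-3p, were detected on none of the 74 arrays and were left out.

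The kidneys came from untreated F344 rats, an inbred strain, killed at 8 ages: the young ages of 2, 5, 6 and 8 weeks, the adult ages of 15 and 21 weeks, and the old ages of 78 and 104 weeks. Each array held total RNA of the whole ground kidney of 1 animal, with 36 female and 38 male arrays and 4 or 5 arrays in each of the 16 groups of age and sex. Sex was taken from the labels of each sample. The growth text of all samples, those of males included, speaks of females.

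A miRNA is cut from a hairpin in a longer transcript, and either arm of the hairpin can be kept. It then pairs with messenger RNAs mainly through its seed, bases 2 to 8, and lowers their translation and stability. miR-322, the rodent counterpart of human miR-424, and miR-503 are known for repressing cyclins and other cell cycle genes, and the cluster is one of several that are rich in fetal and growing tissue and low in adult organs. The rat kidney goes on forming and enlarging its tubules after birth.

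The mature sequences of the 7 members are shown because they decide which members can share targets. They are RefSeq sequences of the GRCr8 build, written 5′ to 3′ with the seed in capitals, in the order of the hairpins along the strand.
rno-miR-322-5p: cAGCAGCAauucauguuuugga
rno-miR-322-3p: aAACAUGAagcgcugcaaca
rno-miR-503-5p: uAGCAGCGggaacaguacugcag
rno-miR-351-5p: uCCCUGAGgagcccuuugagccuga
rno-miR-542-5p: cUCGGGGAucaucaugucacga
rno-miR-542-3p: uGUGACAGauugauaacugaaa
rno-miR-450a-5p: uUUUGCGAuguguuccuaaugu
The seeds of miR-322-5p and miR-503-5p are the same over bases 2 to 7 and differ at base 8. No other pair of members shares a seed. Of the 311 expressed miRNAs, 282 had a mature sequence in the same table. Outside the cluster the seed of miR-322-5p is carried by miR-15b-5p, miR-16-5p, miR-195-5p and miR-497-5p, and that of miR-351-5p by miR-125a-5p and miR-125b-5p, of which 1 is printed for each seed.
rno-miR-16-5p: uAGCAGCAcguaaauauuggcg
rno-miR-125b-5p: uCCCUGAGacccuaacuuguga

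In the GRCr8 annotation the 5 hairpins lie on the minus strand within 5309 bases. Mir322 comes first, at chrX:137726147-137726241. Mir503 follows 220 bases on, at chrX:137725856-137725926, and Mir351 659 bases after that, at chrX:137725116-137725196. A gap of 2861 bases separates Mir351 from Mir542, at chrX:137722176-137722254, and one of 1152 bases separates Mir542 from Mir450a1, at chrX:137720933-137721023. Mir450b-1, which the annotation places in the last gap, was not analysed here.

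The values are normalized intensities: the scanner's total signal of a miRNA on an array divided by the 75th percentile of the 311 expressed miRNAs of that array, so that 1 is the level of that percentile. The percentile ran from 81.2 to 282.5 scanner units over the arrays, 190 to 264 of the miRNAs were detected per array, and no miRNA spot was saturated. Undetected values, and detected values that were lower still, were set to a common floor of 0.0171 before log2 values were taken. Different probes bind with different strength, so levels are compared between samples of 1 member and never between members. A member was called changed where limma's p, adjusted over all 311 miRNAs, was under 0.05 and the difference was at least 1.5-fold. Only the interaction of age and sex was called on the adjusted p alone. The labels call the animals of a group independent, and the number of arrays limits the precision.

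Arrays of 2 to 8 weeks and of 15 to 104 weeks lay on different slides, 5 slides each, except for 1 array of 15-week females that shared a slide with younger ages. The slide therefore cannot be told apart from the step between 8 and 15 weeks, whereas the 2- and 5-week arrays shared the 5 slides of the young ages. miR-192, miR-194, miR-204, miR-30a and miR-200b, listed as marks of kidney tubule and epithelium, were expressed with 9 of 10 listed arms. In these bulk samples fewer cells of a type and less RNA per cell cannot be told apart.

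In both sexes 6 of the 7 members were highest at 2 weeks and had fallen by 5 weeks. The age effect, limma's F test over the 8 ages, was called for those 6 members in females, where 36.7% of all expressed miRNAs were called, and for the same 6 in males, where 45.3% were called. Between 2 and 5 weeks the 6 fell in females, against 11.9% of all miRNAs called lower, and the 6 fell in males, against 12.5%. The median difference over the 7 members was -1.04 on the log2 scale in females and -1.02 in males, while the median over all 311 miRNAs was 0 in both. Every 2-week array lay above every 5-week array of the same sex in all 12 combinations of those 6 members and sex, and above every later array in 11 of the 12, the exception being miR-542-3p in males, where the lowest 2-week array read 0.167 and 1 array of 78 weeks 0.168. With another background correction, normexp with an offset of 50 units, 1 member was called in each sex, miR-322-5p, and all 12 differences of the 6 members kept their sign. That offset is added to every signal and so shrinks the fold changes of dim miRNAs. In females 4 members were called with quantile normalization, which lost miR-322-3p (-0.26) and miR-503-5p (-0.83, limma adjusted p = 0.0631), and 4 with the percentile over all miRNAs of the array, which lost miR-322-3p (-0.48) and miR-450a-5p (-0.54) to the fold threshold.

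**Figure D1:**
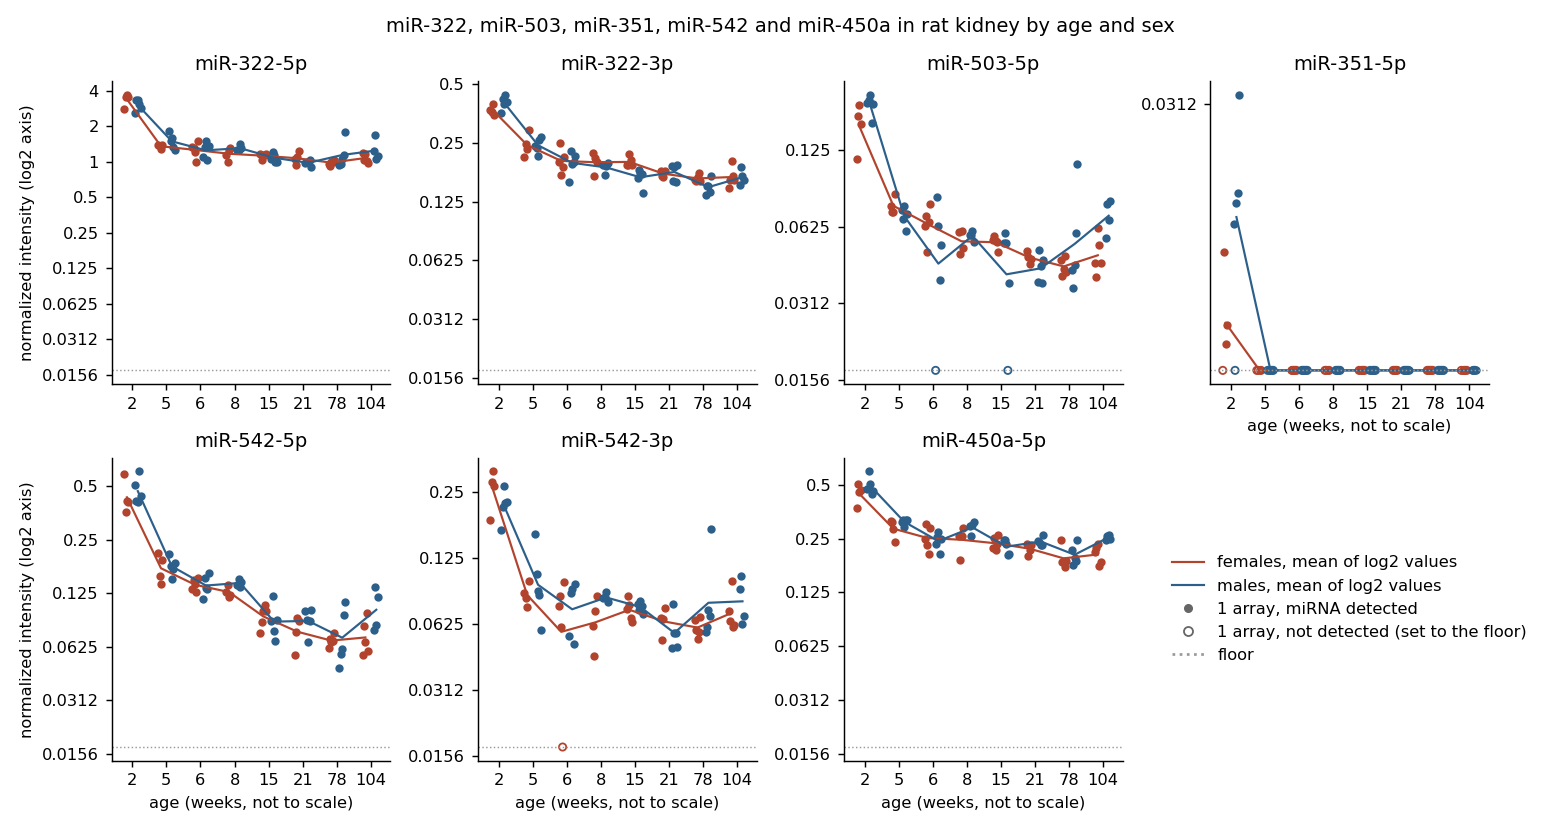
Normalized intensity (log2 axis) of each member on each of the 74 arrays by age in weeks, females in red and males in blue; lines join the means of the log2 values, open circles are arrays where the miRNA was not detected, and the dotted line is the floor of 0.0171. All members but miR-351-5p are clearly higher at 2 than at 5 weeks, miR-542-5p goes on down to 21 weeks, and 1 male array of 78 weeks stands above its group for miR-322-5p (1.77), miR-503-5p (0.11) and miR-542-3p (0.168).

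miR-322-5p, the arm with the seed of the miR-15 and miR-16 family, had normalized intensities of 2.79, 3.56, 3.68 and 3.56 in the 4 females of 2 weeks and of 1.39, 1.36, 1.28 and 1.37 in the 4 females of 5 weeks. The males read 2.56, 3.30, 3.35, 3.08 and 2.87 at 2 weeks and 1.82, 1.51, 1.59, 1.32 and 1.26 at 5 weeks. The ages did not overlap in either sex. The fall was -1.32 ± 0.13 (SE) on the log2 scale in females (2.50-fold, limma adjusted p = 5.74e-13) and -1.02 ± 0.12 in males (2.03-fold, limma adjusted p = 2.83e-11). From 5 weeks on the 65 arrays lay between 0.898 and 1.82 with a median of 1.14, and the highest of them stayed below the lowest 2-week array, a male at 2.56. The array has 2 probes for this arm, which carried 38.4% and 61.6% of its signal, and their mean signals were 2.47 and 2.55 times higher at 2 than at 5 weeks in females and 2.06 and 2.00 times in males.

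The opposite arm, miR-322-3p, has another seed and fell less. Females read 0.367, 0.358, 0.393 and 0.346 at 2 weeks and 0.210, 0.247, 0.233 and 0.289 at 5 weeks. In males the levels were 0.356, 0.416, 0.394, 0.440 and 0.405 at 2 weeks and 0.240, 0.236, 0.214, 0.258 and 0.268 at 5 weeks. Both sexes separated without overlap, by -0.59 ± 0.10 (SE) on the log2 scale in females (limma adjusted p = 1.60e-06) and -0.73 ± 0.09 in males (1.65-fold, limma adjusted p = 2.11e-10). The female value lies just past the 1.5-fold threshold, and the call was lost without any of 3 single arrays, 2-week replicate 5 and 5-week replicates 2 and 5, with differences between -0.57 and -0.52. By 104 weeks the females averaged 0.168 ± 0.0204 (SD, n = 5) and the males 0.167 ± 0.0159 (SD, n = 4).

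miR-503-5p, which shares all but the last base of its seed with miR-322-5p, read 0.115, 0.169, 0.187 and 0.157 in 2-week females and 0.0755, 0.0712, 0.0716 and 0.0837 in 5-week females. In males it read 0.191, 0.196, 0.205, 0.159 and 0.188 at 2 weeks and 0.0723, 0.0666, 0.0750, 0.0602 and 0.0700 at 5 weeks. The lowest of these 2-week values, 0.115, belonged to the female array that was also lowest for miR-322-5p. The difference was -1.04 ± 0.26 (SE) on the log2 scale in females (2.05-fold, limma adjusted p = 0.00128) and -1.45 ± 0.24 in males (2.72-fold, limma adjusted p = 4.92e-07). Its 2 probes, with 7.60% and 92.4% of the signal, gave 2.80 and 1.87 times higher mean signals at 2 than at 5 weeks in females. In males they gave 3.44 and 2.58 times higher mean signals. After 2 weeks miR-503-5p was detected on 63 of 65 arrays. It was not detected on 1 male array of 6 weeks and 1 of 15 weeks, which entered the tests at the floor.

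miR-351-5p, with the seed of the miR-125 family, was close to the detection limit. It was detected on 7 of 9 arrays of 2 weeks and on 10 of 65 arrays of later ages. The detected levels at 2 weeks were 0.0224, 0.0181 and 0.0189 in females and 0.0238, 0.0250, 0.0255 and 0.0319 in males. Later detections reached 0.0141 at most, under the common floor, so every later array stood at the floor. The floored differences of -0.15 ± 0.07 (SE) in females (limma adjusted p = 0.0707) and -0.50 ± 0.06 in males (limma adjusted p = 7.18e-11) on the log2 scale are set by the floor and stayed under 1.5-fold, and no fold change is given. The floored values had no spread within any group after 2 weeks. The floor therefore also makes the SE and the p too small to be taken at face value. In males the call was made with the floor set before scaling and with quantile normalization.

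miR-542-5p had the widest range over the lifetime among the 6 members detected on most arrays. Females read 0.587, 0.360, 0.415 and 0.407 at 2 weeks and 0.210, 0.158, 0.141 and 0.193 at 5 weeks. In males the values were 0.508, 0.413, 0.408, 0.607 and 0.444 at 2 weeks and 0.208, 0.177, 0.1503, 0.172 and 0.186 at 5 weeks. The groups did not overlap, and the differences were -1.33 ± 0.19 (SE) on the log2 scale in females (2.51-fold, limma adjusted p = 4.21e-08) and -1.41 ± 0.17 in males (2.65-fold, limma adjusted p = 1.55e-10). The female array lowest for miR-322-5p at 2 weeks was the highest for miR-542-5p. Its 2 probes, with 28.7% and 71.3% of the signal, gave 2.75 and 2.43 times higher mean signals at 2 than at 5 weeks in females and 2.74 and 2.64 times in males.

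miR-542-3p, the opposite arm, is known for repressing the mitosis and survival gene survivin. It read 0.185, 0.276, 0.309 and 0.265 in 2-week females and 0.0857, 0.0815, 0.0744 and 0.0974 in 5-week females. The males read 0.167, 0.212, 0.264, 0.222 and 0.225 at 2 weeks and 0.161, 0.105, 0.0879, 0.0845 and 0.0584 at 5 weeks. In females the ages stood wide apart, whereas in males the lowest array of 2 weeks and the highest of 5 weeks nearly met. The fall was -1.59 ± 0.29 (SE) on the log2 scale in females (3.01-fold, limma adjusted p = 7.79e-06) and -1.20 ± 0.26 in males (2.30-fold, limma adjusted p = 9.82e-05). Its 2 probes, with 83.5% and 16.5% of the signal, gave 2.47 and 3.97 times higher mean signals at 2 than at 5 weeks in females. In males they gave 2.12 and 1.90 times higher mean signals. One female array of 6 weeks did not detect miR-542-3p.

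miR-450a-5p, from the last hairpin, read 0.369, 0.506, 0.453 and 0.464 in 2-week females and 0.314, 0.309, 0.281 and 0.238 in 5-week females. Male levels were 0.472, 0.593, 0.507, 0.446 and 0.462 at 2 weeks and 0.309, 0.317, 0.290, 0.319 and 0.316 at 5 weeks. The 5-week males lay within a narrow band well under all 2-week males. The difference was -0.65 ± 0.11 (SE) on the log2 scale in females (1.57-fold, limma adjusted p = 2.80e-06) and -0.67 ± 0.10 in males (1.59-fold, limma adjusted p = 6.89e-08). Without 5-week female replicate 6 the female difference was -0.56, under 1.5-fold.

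**Figure D2:**
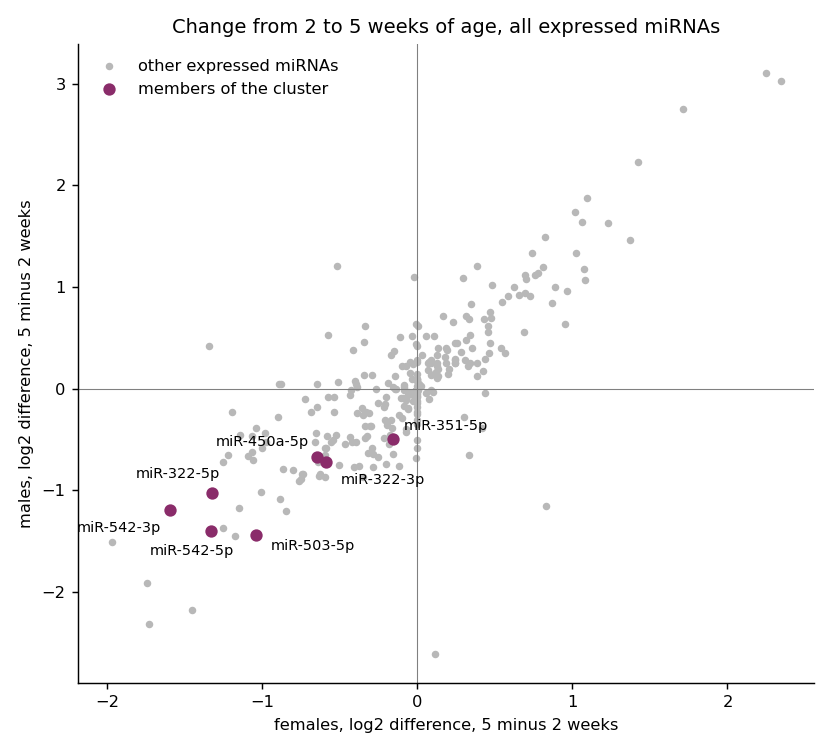
Log2 difference between 5 and 2 weeks in females (horizontal) and males (vertical) for the 311 expressed miRNAs, each a point, with the 7 members in purple. The members lie at the lower left, between -1.59 and -0.15 in females and between -1.45 and -0.50 in males, with other miRNAs around them.

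Ranked from the largest fall among the 311 miRNAs, miR-542-3p was number 4, miR-542-5p number 7 and miR-322-5p number 8 in females, with miR-503-5p at 21. In males miR-503-5p was number 7, miR-542-5p number 8, miR-542-3p number 11 and miR-322-5p number 15. miR-450a-5p and miR-322-3p stood lower in both sexes, at ranks 41 and 51 in females and 39 and 33 in males. The sex difference in the fall itself was tested as an interaction of sex with the step from 2 to 5 weeks, and for the 6 members it lay between -0.41 and 0.39 on the log2 scale with limma adjusted p from 0.456 to 1.

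Arrays of 2 and 5 weeks were scanned together on 3 scan days in each sex. Within single scan days the 36 differences of the 6 members ran from -1.89 to -0.05 on the log2 scale. Their sign was fixed by the lack of overlap between these ages given above, so only their size is described. On scan day 1 in both sexes, and on scan day 3 in females, each age had 1 array. The value of -0.05 came from miR-542-3p in males on a day with 1 array of each age, and the other days gave -1.30 and -1.67.

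Known markers of other cell types moved over the same step. Among all 311 expressed miRNAs 26 were called higher at 5 weeks in females and 38 in males, and 37 and 39 were called lower. The stromal miRNAs miR-199a-3p, miR-199a-5p and miR-214-3p fell in both sexes, all 3 of 3 expressed of 4 listed. Their summed normalized intensity ran from 15.8 to 18.3 in females and from 18.2 to 20.1 in males at 2 weeks, and from 9.48 to 10.5 and from 9.84 to 10.9 at 5 weeks. Of the leukocyte list 5 of 6 arms were expressed, 2 rose in each sex, and its sum went from 2.22 to 2.50 in females and 1.94 to 2.06 in males at 2 weeks up to 2.74 to 3.21 and 2.88 to 3.35 at 5 weeks. The kidney list rose in 3 arms in females and 5 in males, with sums of 39.7 to 43.1 and 30.9 to 36.1 at 2 weeks and of 43.8 to 58.3 and 44.1 to 50.9 at 5 weeks. The 2 endothelial arms of miR-126a were called in neither sex, and neither were the 2 expressed muscle arms, whose sum stayed between 0.0671 and 0.122. Of the 3 expressed erythroid arms 1 rose in each sex. The liver miRNA miR-122 summed to between 0.397 and 23.8 in the 2-week males and to 0.107 at most in the 2-week females. The part of these shifts in the members' fall was not tested.

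The members fell by unequal amounts, which a ratio taken within each array shows without regard to scaling. The log2 ratio of each of the 21 pairs of members was compared between 2 and 5 weeks with an exact two-sided permutation of arrays between ages within sex. Among the 15 pairs without miR-351-5p, 9 changed at an unadjusted exact p under 0.05 and the same number at a p adjusted over the 21 pairs. The same test passed 66.8% of the 13695 pairs of miRNAs that were detected on all arrays at the unadjusted level, so the share among members was near the background. The 6 pairs with miR-351-5p passed too, with values that the floor limits.

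Both arms of the miR-322 hairpin were among the pairs that changed: miR-322-5p fell by 0.52 more on the log2 scale than miR-322-3p (exact permutation p = 0.00147, adjusted p = 0.00281), with 0.73 in females and 0.30 in males. The level of miR-322-3p rests on 1 probe with 98.9% of its signal. Its other, dim probe fell more in both sexes than either probe of miR-322-5p, so this difference between arms depends on the probe. The arms of miR-542 differed by 0.03 (exact permutation p = 0.888). miR-322-5p, miR-503-5p, miR-542-5p and miR-542-3p each fell more than both miR-322-3p and miR-450a-5p, by 0.51 to 0.74, with adjusted p from 0.000794 to 0.00397 by the exact permutation test. Within that set of 4 members only miR-322-5p and miR-542-3p changed against each other, by 0.22 (exact permutation p = 0.0346, adjusted p = 0.0484). miR-322-3p and miR-450a-5p, from the first and the last hairpin, differed by 0.0019 on the log2 scale (exact permutation p = 0.988), with 0.06 in females and -0.06 in males.

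**Figure D3:**
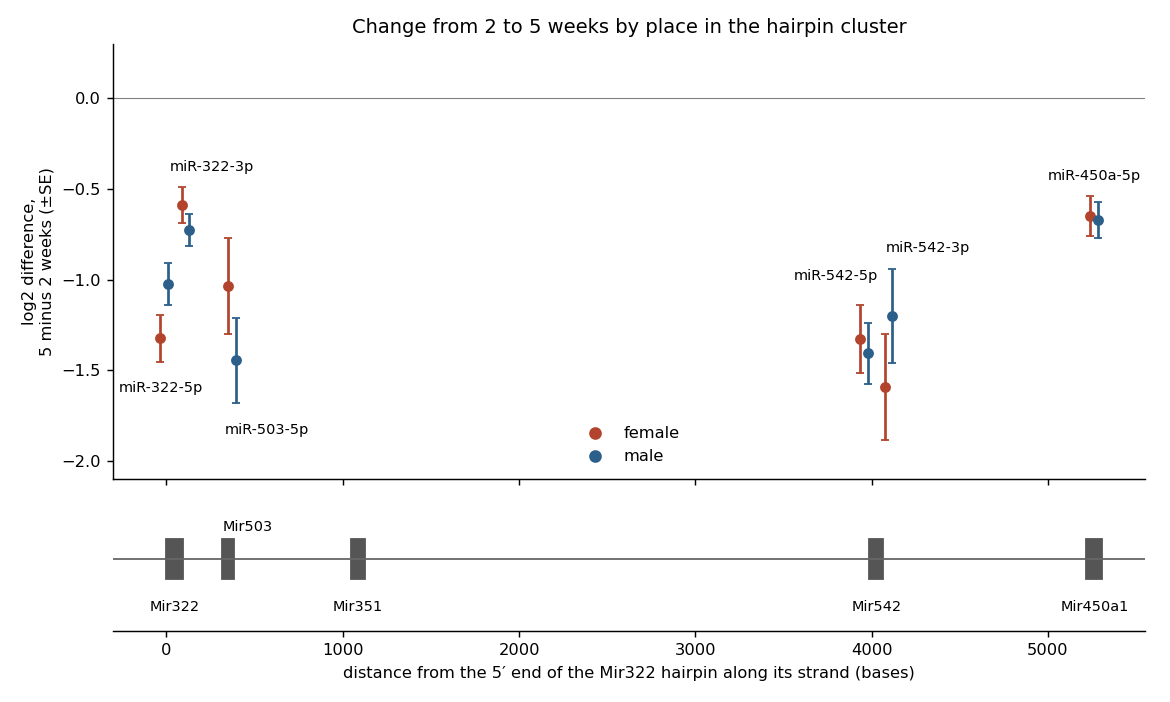
Upper panel, log2 difference between 5 and 2 weeks (± SE) for the 6 members detected on most arrays, females in red and males in blue, drawn over their hairpins and set apart sideways so that arms and sexes can be seen; lower panel, the 5 hairpins by distance in bases from the 5′ end of Mir322. Falls of about the same size occur at both ends: miR-322-3p (-0.59 in females) and miR-450a-5p (-0.65) lie 5218 bases apart, while the arms of Mir322 differ in total signal.

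After 5 weeks the members changed less. Between 5 and 8 weeks limma called 0 of 7 members in females, where 1.29% of all miRNAs were called lower, and 0 of 7 in males, where 0.322% were. At an unadjusted p under 0.05 there were 2 members in females and 1 in males, and the methods' t-test also called 0. In males miR-322-3p fell by 0.38 on the log2 scale (1.30-fold, limma adjusted p = 0.00435), which is under the fold threshold. Its 4 male arrays of 8 weeks, 0.192, 0.171, 0.189 and 0.196, lay below all 5 of 5 weeks.

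Between 8 and 15 weeks 1 member was called, miR-542-5p in males, where 0.965% of all miRNAs were called lower. Its levels were 0.140, 0.151, 0.136 and 0.146 at 8 weeks and 0.0876, 0.121, 0.0772, 0.0676 and 0.0887 at 15 weeks. All males of 15 weeks lay below all males of 8 weeks, and the difference was -0.72 ± 0.18 (SE) on the log2 scale (1.65-fold, limma adjusted p = 0.0125). With the slide as a fixed block it was -0.39, with a limma adjusted p of 1. In that fit only the 1 array of 15-week females on a slide of younger ages links the young and old slides. It therefore cannot separate the slide from the age step. Within the 2 scan days that held both ages, still on different slides, the difference was -0.59 and -0.79. Leaving out 15-week male replicate 3 (-0.68), 15-week male replicate 4 (-0.63) or 8-week male replicate 6 (-0.72, limma adjusted p up to 0.0619) also ended the call. At an unadjusted p under 0.05 there were 4 of the 7 members in males, and miR-450a-5p differed by -0.36 ± 0.11 (SE) with a limma adjusted p of 0.0473, under 1.5-fold. In females limma called 0 of 7, against 0.643% of all miRNAs called lower, with 1 member at an unadjusted p under 0.05, and miR-542-5p was -0.45 ± 0.18 (limma adjusted p = 0.115).

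The mean level of miR-542-5p also took another later course than that of its opposite arm. From 5 to 21 weeks the miR-542-5p mean went down 2.27-fold in females and 2.03-fold in males, whereas miR-542-3p went down 1.32-fold and 1.66-fold. This later difference between the arms was not tested. In males the miR-542-5p mean was 0.0885 at both 15 and 21 weeks. By 5 weeks miR-542-5p had covered 52.8% of its log2 fall from 2 to 21 weeks in females and 58.0% in males. For the other 5 members the share was between 54.7% and 80.0%.

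In old age only males gave a call. Between 21 and 104 weeks miR-503-5p rose in males, where 6.11% of all miRNAs were called higher. The males read 0.0377, 0.0504, 0.0438, 0.0376 and 0.0463 at 21 weeks and 0.0563, 0.0767, 0.0663 and 0.0787 at 104 weeks. The ages did not overlap, and the difference was 0.68 ± 0.25 (SE) on the log2 scale (1.61-fold, limma adjusted p = 0.0286). Leaving out any of 4 arrays, 104-week male replicates 2 and 6 or 21-week male replicates 1 and 4, ended the call with limma adjusted p up to 0.0872, and with the replicate number as a block it was 0.64 (limma adjusted p = 0.0512). With normexp it was -0.068. Within the 3 scan days that held both ages it was 0.16, 0.81 and 0.92.

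miR-322-5p, which nearly shares that seed, differed the same way by 0.35 ± 0.12 (SE) on the log2 scale in males (1.27-fold, limma adjusted p = 0.0239), under the fold threshold. Its levels were 0.966, 1.0, 0.995, 1.03 and 0.898 at 21 weeks and 1.22, 1.67, 1.04 and 1.12 at 104 weeks, and the groups just failed to overlap. Without 104-week male replicate 2, the array at 1.67, the difference was 0.21 (limma adjusted p = 0.263), and without 21-week male replicate 5 it was 0.32, with a limma adjusted p also above 0.05. On 21-week male replicate 2 the signal of miR-322-5p was itself the scaling percentile, so it read 1.0 by construction. The same held on 6-week female replicate 4, 15-week male replicates 4 and 6 and 78-week female replicate 4. With the percentile over miRNAs detected on all arrays the difference was 0.67 (limma adjusted p = 0.000232), past 1.5-fold. For the remaining members the male difference lay between -0.09 and 0.48 with limma adjusted p from 0.201 to 1. In females limma called 0 of 7, against 0.965% of all miRNAs called higher, with 0 at an unadjusted p under 0.05, and the differences ran from -0.11 to 0.13.

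Other cell markers shifted in the same males. Between 21 and 104 weeks 19 of all 311 expressed miRNAs were called higher in males and 27 lower. The leukocyte sum was 3.30 to 3.98 in males of 21 weeks and 5.72 to 7.91 at 104 weeks, with 4 of 5 expressed arms called higher, and the stromal sum was 7.60 to 9.24 and 10.9 to 13.3, with 2 of 3 called higher. The kidney sum went from 57.2 to 62.5 at 21 weeks to 38.4 to 45.5 at 104 weeks, with 6 of 9 called lower. The erythroid sum was 1.12 to 2.19 at 21 weeks and 2.53 to 4.46 at 104 weeks, with 2 of 3 called higher. The muscle sum was 0.143 to 0.199 and 0.0754 to 0.131, with 1 of 2 called lower. The endothelial sum was 13.5 to 15.7 and 11.7 to 13.6, and no endothelial or liver arm was called. In females of 104 weeks the leukocyte sum was 3.49 to 3.77 and the stromal sum 7.94 to 9.22. Their kidney sum was 53.6 to 65.3 and their erythroid sum 1.82 to 3.78. The part of these shifts in the male values of miR-503-5p and miR-322-5p was not tested.

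One male of 78 weeks, replicate 6, lay above its group mean for all 6 members detected on most arrays, by 0.65 on the log2 scale on average. Its miR-322-5p level was 1.77 against 0.932 to 1.14 in the other 4 males, and its miR-542-3p level 0.168 against 0.0575 to 0.0722. The same array had the highest leukocyte sum of the group, 7.42 against 4.25 to 5.59, the highest stromal sum, 12.7 against 8.55 to 10.6, and the lowest kidney sum, 41.5 against 46.8 to 54.7. Its erythroid sum was also the highest, 3.15 against 1.99 to 3.06. The endothelial sum was the lowest, 12.0 against 13.1 to 14.4. So were the muscle sum, 0.0538 against 0.0861 to 0.148, and the liver sum, 0 against 0.0214 to 0.0375. The part of these sums in the members' levels on this array was not tested.

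Male and female levels were compared at each age, and limma called 0 of the 56 combinations of member and age. The share of all miRNAs called in either direction was 3.86% at 2 weeks, 0% at 5, 0.322% at 6, 1.29% at 8, 3.54% at 15, 4.82% at 21, 6.75% at 78 and 6.11% at 104 weeks. At an unadjusted p under 0.05 there were 7 of the 56, and the methods' t-test called 0. At 104 weeks miR-542-5p was higher in males by 0.52 ± 0.18 (SE) on the log2 scale (1.43-fold, limma adjusted p = 0.0315) and miR-450a-5p by 0.32 ± 0.11 (1.25-fold, limma adjusted p = 0.0254), both under the fold threshold. The 4 males of 104 weeks read 0.0775, 0.136, 0.0836 and 0.119 for miR-542-5p and the 5 females 0.0561, 0.0824, 0.0665, 0.0965 and 0.0595, which overlap. For miR-450a-5p the males read 0.246, 0.259, 0.262 and 0.249 and the females 0.210, 0.220, 0.234, 0.175 and 0.185, with all males above all females. The interaction of age and sex, which had no fold threshold, was called for 1 member, miR-351-5p (limma adjusted p = 0.00776), against 27.7% of all miRNAs. Its largest term was 1.27-fold, and its levels rest on the 2-week arrays and the floor. After 2 weeks every array of both sexes had the same floored value. The test therefore restates the sex difference at 2 weeks, with a p that the missing spread makes too small.

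How far neighbours moved together was measured after the mean of each of the 16 groups had been taken off, so that only differences between animals of one age and sex remained. Over 74 arrays the Pearson r of the 15 pairs without miR-351-5p ran from -0.02 to 0.81 with a median of 0.37. Over all 13695 pairs of miRNAs detected on all arrays the median was 0.10, and 22.7% of them had an r at or above 0.33, the lowest that passed among members. A permutation test within groups (100000 draws, two-sided, adjusted over the 21 pairs) passed for 9 of the 15 pairs by r and 7 by Spearman's rho. Any pair of the same array shares its scaling and labelling, and the part of these in the correlations was not tested.

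The closest pair was miR-322-5p and miR-542-3p, from different hairpins, with r = 0.81 and rho = 0.78 (permutation p = 1e-05, the smallest that the draws can give, and adjusted p = 0.00021 for both). Leaving out the 2 arrays farthest from the median of miR-322-5p gave r = 0.78, and single scan days gave 0.86, 0.80, 0.69 and 0.92. Of all pairs of miRNAs 0.482% had an r this high. miR-322-5p with miR-503-5p (r = 0.54, rho = 0.52), miR-542-3p with miR-450a-5p (r = 0.52, rho = 0.44) and miR-322-5p with miR-450a-5p (r = 0.52, rho = 0.48) came next, with adjusted permutation p of 0.000367, 0.00028 and 0.00021 for r. Without the 2 farthest arrays these were 0.46, 0.43 and 0.50.

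Arms of the same hairpin were not the closest pairs. miR-322-5p and miR-322-3p had r = 0.33 and rho = 0.29 (adjusted permutation p = 0.032 and 0.0684), and r was 0.25 without the 2 farthest arrays. miR-542-5p and miR-542-3p had r = 0.20 and rho = 0.06 (adjusted permutation p = 0.18 and 0.815), and miR-542-5p with miR-450a-5p had r = -0.02. Whether 2 of these correlations differ from each other was not tested.

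**Figure D4:**
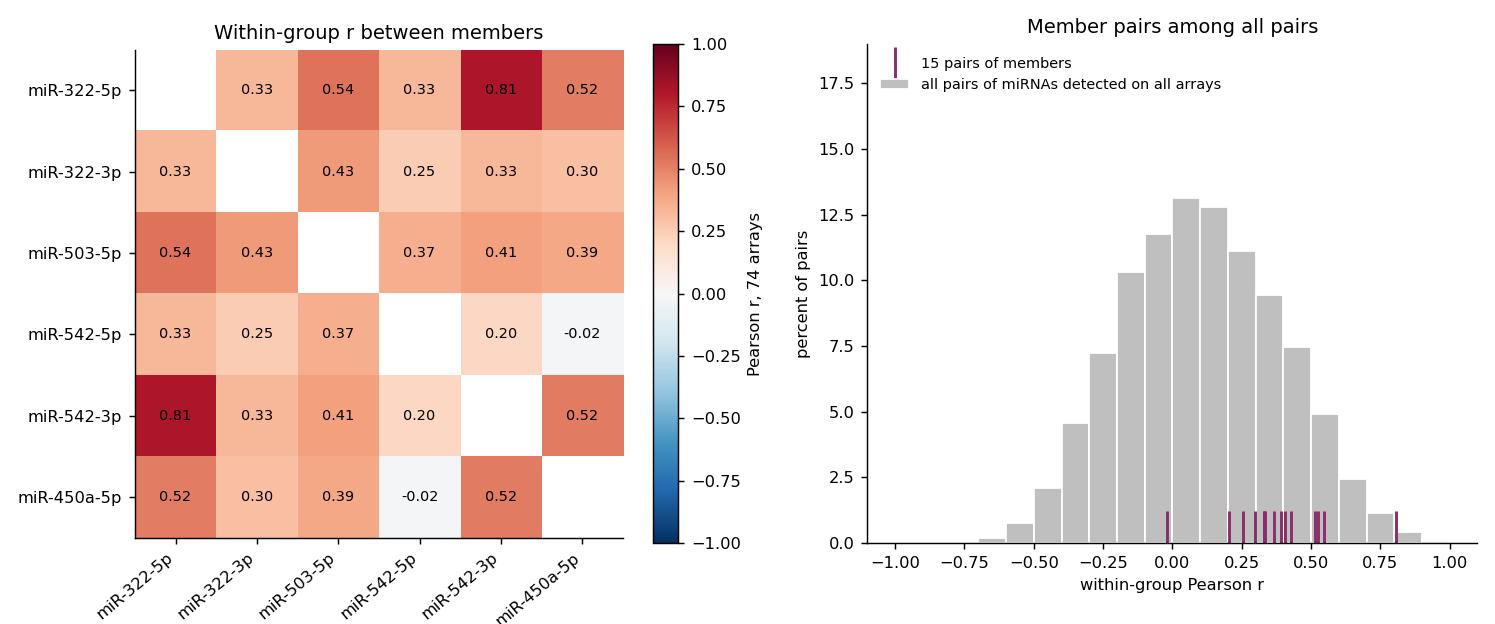
Left, Pearson r between 6 members over 74 arrays after the group means were taken off; right, percent of all 13695 pairs of miRNAs detected on all arrays in each band of r (grey bars), with the 15 member pairs as purple ticks. The member pairs lie mostly above 0.20, to the right of the median of all pairs at 0.10, and miR-322-5p with miR-542-3p stands highest at 0.81.

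Without the male array of 78 weeks described above, the median r of the 15 pairs was 0.28. Over all 74 arrays, with slide means removed beside the group means, it was 0.42. Within the 4 scan days, which held 8, 7, 29 and 30 arrays, the median was 0.31, 0.45, 0.42 and 0.41. For group means, over the 14 groups of 5 weeks and later the 15 pairs had a median r of 0.72, against 0.07 for all pairs, and with the 2-week groups 0.93 against 0.05. These are descriptions of few points that share ages.

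None of the 6 miRNAs outside the cluster that carry a member's seed was called between 2 and 5 weeks in either sex. Among all 311 expressed miRNAs 63 were called in females and 77 in males, in either direction. With most miRNAs not called, 6 are too few to set these relatives apart from the rest. For miR-16-5p the difference between 5 and 2 weeks was -0.10 ± 0.09 (SE) on the log2 scale in both sexes, with an SE of 0.08 in males (limma adjusted p = 0.506 and 0.394). miR-15b-5p fell by 0.55 in females and by 0.51 in males (limma adjusted p = 5.37e-05 and 1.63e-05), under 1.5-fold. miR-195-5p and miR-497-5p, which come from 1 other hairpin cluster, differed by -0.04 and -0.17 in females and by 0.52 and 0.33 in males. The miR-351-5p seed relatives miR-125a-5p and miR-125b-5p differed by -0.16 and -0.17 in females and -0.39 and -0.31 in males.

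The 5 miRNAs outside the cluster whose 16 group means followed the mean of the members' profiles most closely, among 162 detected on all arrays, were miR-106b-5p (r = 0.98), miR-17-5p and miR-20b-5p (r = 0.96 each), and miR-181d-5p and miR-181c-5p (r = 0.95 each). The first 3 share the seed of the miR-17 family, which is known from proliferating cells. The 2-week groups were part of the profile that picked these 5, so a fall after 2 weeks was selected for. All 5 were called lower at 5 than at 2 weeks in both sexes. Of all miRNAs 11.9% were called lower in females and 12.5% in males. The falls of the 5 were at least 0.59 on the log2 scale in females and 0.80 in males. Over the 14 later groups alone r was between 0.76 and 0.85.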

How the data were processed

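Kidney miRNA was measured on 74 1-colour Agilent rat arrays, 1 animal each. The deposited intensities are, per the file headers, total gene signals made by Agilent Feature Extraction 10.7.3.1, which sums the background-subtracted probe signals of a miRNA and marks it as detected or not. Most columns of the deposited series table equalled the scanner output of another sample than the one they name, so that table was not used.

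Each array's signals were divided by their 75th percentile over the 311 miRNAs detected on any array, floored at 0.0171 (the lowest detected signal, 1.39, over the smallest percentile, 81.2) and log2 transformed. limma 3.58.1 (R 4.3.3, statmod 1.5.0) fitted the 16 groups together, and for the age effect the arrays of each sex alone. Benjamini-Hochberg adjustment ran over the 311 miRNAs. Calls needed an adjusted p under 0.05 and 1.5-fold, the interaction aside. For the age effect the 1.5-fold had to hold for a pair of ages at an unadjusted p under 0.05. The permutation tests ran in Python 3.11.15 (numpy 2.4.6, scipy 1.17.1, pandas 2.3.3). The limma age tests, some limma contrasts, the exact permutation test and the permutation test of Pearson's r were checked on simulated data. The interaction, the fits with a block and Spearman's rho were not. All members are named, with relatives that share a seed and the 5 miRNAs most like the members. Members and lists were chosen with earlier results of these data known. Alternatives covered the percentile, floor, background, quantile normalization, filters, slide, scan day, replicate number and each array left out. The p-values measure the spread between arrays of different animals.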

Additional observations from a re-analysis of the deposited data

Results flagged for a closer look

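Of the 98 combinations of member and group in which a single array could stand apart from the others, 6 did, and chance gives about 1 in 20. miR-322-5p read 2.79 in 2-week female replicate 3 against 3.56 to 3.68 in the others of its group, and 1.02 in 15-week female replicate 2 against 1.13 to 1.17. In 78-week male replicate 6 it read 1.77, and miR-542-3p on the same array 0.168, both above the rest of the group. miR-542-3p read 0.0979 in 104-week female replicate 3 against 0.0606 to 0.071, and miR-450a-5p 0.246 in 78-week female replicate 1 against 0.173 to 0.187. The interaction of age and sex was called for miR-351-5p (limma adjusted p = 0.00776). Every array after 2 weeks had the same floored value, so this restates the sex difference at 2 weeks. No age course could be compared. The call was lost with normexp, quantile normalization and the floor before scaling.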

How the results depend on the processing

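The 12 differences of the 6 members between 2 and 5 weeks took 150 values under the alternatives, of which 135 stayed called, 15 lost the call and 0 reversed; of 888 values with 1 array left out, 884 stayed called. With normexp, members called with age were 3 in females and 3 in males, between 2 and 5 weeks 1 and 1, between 8 and 15 weeks in males 0, between 21 and 104 weeks in males 0 and for the interaction 0; ratio pairs changed were 6 and correlated pairs 21, and 2 differences reversed, miR-503-5p between 21 and 104 weeks in males to -0.068 and miR-542-5p between the sexes at 104 weeks to -0.13. Members called with age were 2 in females without the 2-week arrays, and 0 in each sex over 15 to 104 weeks alone.

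With no fold threshold, calls in males were 1 between 5 and 8 weeks, 2 between 8 and 15 and 2 between 21 and 104, and 3 between the sexes. With the percentile over miRNAs detected on all arrays, they were 0 between 8 and 15 weeks, 3 between 21 and 104, 1 between the sexes and 14 correlated pairs. With the percentile over all miRNAs of the array, they were 0 between 8 and 15 weeks and 2 between the sexes. Between 2 and 5 weeks in females, quantile normalization and the percentile over all miRNAs each gave 4; in males quantile normalization lost miR-322-3p (-0.58) and gained miR-351-5p. Quantile normalization gave 1 between the sexes, 0 for the interaction, 8 ratio pairs and 4 correlated pairs. The floor before scaling gave 0 for the interaction and 8 ratio pairs. The methods' t-test and the slide as a fixed block gave 0 between 8 and 15 weeks in males, and testing all miRNAs of the array gave 0 between 21 and 104 weeks. The replicate block also gave 0 there and changed no other count; the numbers are shared by number only, since 28 same-numbered pairs of females and males had a mean r of 0.038, the lowest -0.61, against -0.0039 for 143 other pairs. Leaving out 1 array at a time gave 0 to 1 calls between 8 and 15 weeks and between 21 and 104 weeks in males, 0 to 1 between the sexes and 0 to 2 for the interaction. The slide as a fixed block could not be fitted for the age effect in males. The scan day, chosen after seeing the data, changed no count. The cause of these changes was not tested. Signals near the floor limit miR-351-5p most, then miR-503-5p and miR-542-3p.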
